A study of Mus musculus with 12 samples.

Results

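The comparison described here set regulatory T cells (Treg) against conventional T cells (Tconv) from mice that lack an enhancer of Lrrc32. It rests on the 6 ATAC-seq libraries titled KO1, KO2 and KO3 for each of the Treg and Tconv cells, out of 12 libraries in all. The other 6 libraries were 3 Treg and 3 Tconv from wild-type (WT) animals. They took no part in choosing regions, except in a search of chromosome 7 and in lists made from WT alone. They were used to read the regions chosen in KO a second time. All animals, WT and KO, carried the Foxp3-IRES-EGFP reporter. KO Treg were splenic CD4+ cells sorted as GFP-positive and KO Tconv were splenic CD4+ cells sorted as GFP-negative, both from animals with the genotype given as Lrrc32+ 70k enhancer KO. Each library was made from 100000 sorted cells. The labels name no treatment of the animals, and neither their age nor their sex. They also leave out how the deletion was made, how many founder lines carried it and whether each library came from its own animal. The spread behind each p-value is therefore that between libraries, and it may be technical.

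Treg restrain immune responses and depend on the transcription factor Foxp3, whose locus carries the reporter. Tconv include the T cells that can respond to antigen, and both lineages arise from common thymic precursors. Lrrc32 encodes GARP, a surface protein that presents latent TGF-beta and is found mainly on activated Treg. ATAC-seq inserts adapters into accessible DNA with the Tn5 transposase, so that peaks mark open promoters, enhancers and insulators. Cell type differences in such maps lie mostly at distal regulatory elements, while promoters of widely used genes are open in both.

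The libraries were of like size except for 1. KO Treg replicates 1 and 3 held 24689 and 25400 peaks, and the 3 KO Tconv libraries held 24874, 24649 and 25283. KO Treg replicate 2 held 5262 peaks with a median width of 375 bp, against 538 to 569 bp in the other 5 KO libraries. Its median −log10 p of 7.48 was below the 10.8 to 11.97 of those libraries. The main results therefore use KO Treg replicates 1 and 3 against the 3 KO Tconv libraries, and the values with replicate 2 stand beside them. Read depth is unknown, since the lists hold no counts. The numbers of peaks on the Y chromosome ranged from 30 to 38 over the 6 libraries, and those on the X chromosome from 198 in KO Treg replicate 2 to 837 in KO Tconv replicate 3.

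Peaks of the 6 KO libraries were merged into 36260 regions, and a library had a region if a peak overlapped it by at least 1 bp. A peak in every library of both cell types was the most frequent outcome. Of all regions, 16812 (46.4%) had a peak in both KO Treg replicates and all 3 KO Tconv libraries. A peak that is weaker because fewer cells were open cannot be told apart from one that was less open in each cell. Regions seen in only 1 of the 5 libraries came next. There were 4276 with a peak in a single Tconv library and 3233 with a peak in a single Treg library.

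A peak in both Treg replicates and in no Tconv library was found at 2263 regions, which are called Treg-only in what follows (6.24% of all regions). A peak in all 3 Tconv libraries and in neither Treg replicate was found at 1552 regions, called Tconv-only (4.28% of all regions). The 2 rules ask for different numbers of libraries, so these counts cannot be set against each other. With 1 Tconv library left out, so that 2 libraries stood against 2, there were 2565 to 2611 Treg-only and 2037 to 2203 Tconv-only regions, depending on the library. No single region can pass a test of presence here, because 2 libraries against 3 cannot give an exact p below 0.1. Without KO Treg replicate 1 the counts were 3972 and 2141, and without KO Treg replicate 3 they were 3787 and 2434, where 1 Treg library is enough by construction.

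**Figure D1:**
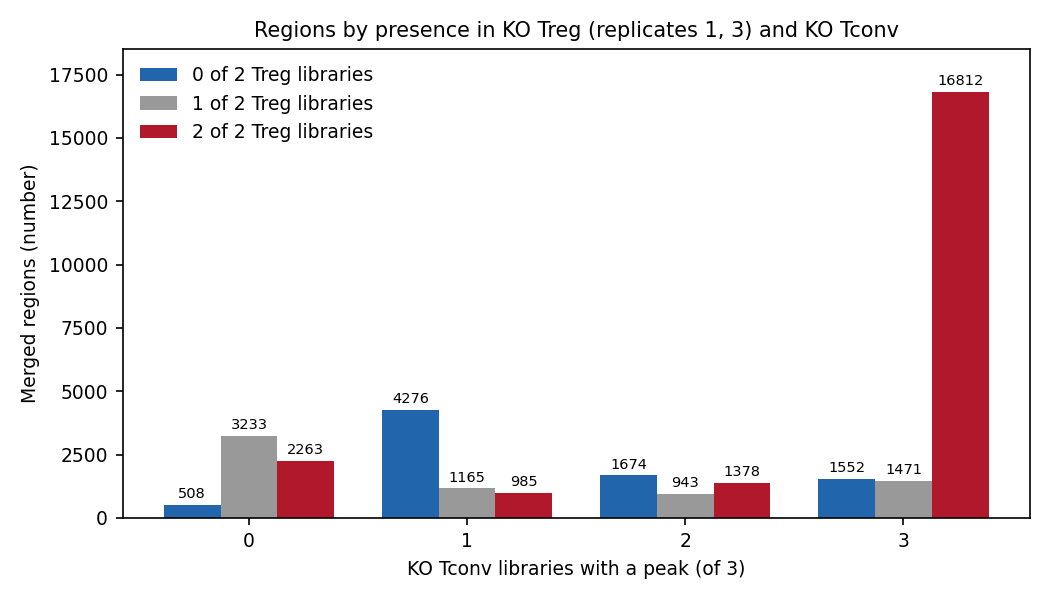
Number of merged regions (vertical axis) by how many of the 3 KO Tconv libraries had a peak (horizontal axis) and how many of KO Treg replicates 1 and 3 had one (colours). The bar for all 5 libraries reaches 16812, the Treg-only bar 2263 and the Tconv-only bar 1552.

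Regions of a single cell type were narrower and weaker than shared ones. Strength is given as a percentile, the rank of a peak by the authors' −log10 p within its own list, where 100 is the strongest peak. The median Treg-only region spanned 496 bp and ranked at percentile 28.9, with quartiles of 17.1 and 43.2. The median Tconv-only region spanned 556 bp and ranked at 30.8, with quartiles of 20.1 and 42.5. For shared regions these medians were 924 bp and 63.1. Both contrasts follow in part from the rules, since merged widths grow with the lists joined and weak regions are easily missed by a list. Within KO Treg replicate 1 alone, the median width covered was 380 bp in Treg-only and 691 bp in shared regions. Within KO Tconv replicate 1 it was 373 bp in Tconv-only and 679 bp in shared regions. Only 34 Treg-only regions (1.502%) and 32 Tconv-only regions (2.06%) lay at the 75th percentile or above, against 34.2% of shared regions. Below the 25th percentile lay 945 Treg-only (41.8%) and 561 Tconv-only regions (36.1%), against 6.20% of shared ones. A large share of both sets thus lay near the calling limit, and the strong regions named next are the exceptions.

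The 10 strongest Treg-only regions ranked at 79.7 or above in both KO Treg replicates. The strongest was chr2:83540576-83541453 on NCBIM37, the build of all coordinates here. It ranked at 94.8 and 93.4 in KO Treg replicates 1 and 3 and at 77.3 within the shorter list of KO Treg replicate 2. It had no peak in the 3 KO Tconv libraries. The authors' lists gave it a fold enrichment over background of 7.55 and 7.62 in replicates 1 and 3.

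The next was chr12:35705735-35706557, at 96.1 and 89.8 in KO Treg replicates 1 and 3. A further Treg-only region of that chromosome, chr12:33459292-33460103, ranked at 82.0 and 85.3. Both also had a peak in KO Treg replicate 2, at percentiles of 72.2 and 13.0 of its list. The third region of chromosome 12 among the 10, chr12:70611731-70612233, ranked at 89.5 and 79.7 and had no peak in replicate 2.

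The region chr16:33606781-33607472 ranked at 93.3 and 88.03 and had the highest fold enrichment of the 10, at 10.3 and 9.75 in the authors' lists. Chromosome 13 held 2 of the group, chr13:76718546-76719311 at 87.5 and 89.4 and chr13:111353955-111354716 at 84.4 and 85.8. The remaining 3 were chr17:87518261-87518889, chr5:151025880-151026678 and chr9:7509727-7510395, with means over the 2 replicates of 89.6, 88.5 and 86.5. Of the 10 regions, 7 had a peak in KO Treg replicate 2, and those on chromosomes 16 and 9 and the 1 at 70611731 on chromosome 12 did not. In the WT libraries, all 10 had a peak in all 3 Treg and in no Tconv library.

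The 10 strongest Tconv-only regions reached slightly higher ranks. The strongest, chr16:31181885-31182254, was only 370 bp wide and ranked at 95.7, 94.7 and 98.1 in KO Tconv replicates 1 to 3. The authors' lists gave it a fold enrichment of 14.02, 12.8 and 15.7, above that of any other region among the 20 named Treg-only and Tconv-only regions. No KO Treg library had a peak there.

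Chromosome 2 held 3 of the 10. The region chr2:83856091-83857122 had percentiles of 93.8, 96.2 and 93.4, chr2:117833664-117834153 of 84.9, 90.05 and 92.02, and chr2:84422306-84422961 of 94.5, 84.7 and 87.2. The strongest Treg-only region, at 83540576, lies on the same chromosome with the opposite presence.

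On chromosome 10, chr10:100232703-100233860 had a mean of 92.7 ± 1.32 (SD, n = 3) and chr10:95153448-95154199 one of 83.8 ± 3.51. The other regions were chr15:3259462-3260481 (90.3 ± 6.95), chr4:86367548-86368253 (88.2 ± 5.52), chr3:100870005-100870521 (85.7 ± 3.15) and chr5:65504401-65504997 (85.2 ± 4.58; SD, n = 3 each). None of the 10 had a peak in KO Treg replicate 2. All 10 had a peak in every WT Tconv library. In the WT Treg libraries 6 of the 10 had none. The region at 100870005 on chromosome 3 had a peak in 2 WT Treg libraries, at percentiles of 8.6 and 8.0, and the other 3 had one in a single WT Treg library.

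**Figure D2:**
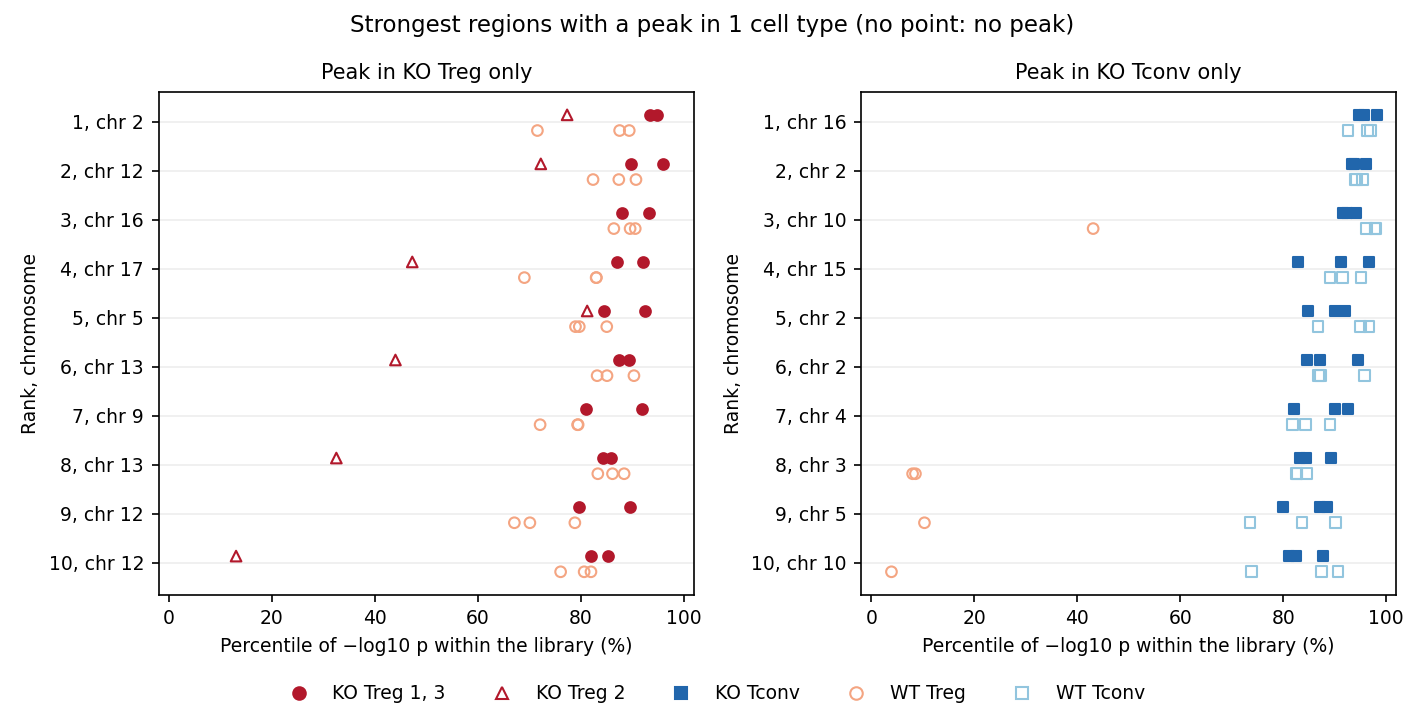
Percentile of −log10 p within each library (horizontal axis) for the 10 strongest Treg-only (left) and Tconv-only (right) regions, 1 row per region labelled by rank and chromosome, with 1 point per library that has a peak (filled, the libraries that defined the regions; open, those that did not). Points of the other cell type are missing on the left and, for 4 regions on the right, appear in WT Treg libraries at 43.1 or below.

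KO Treg replicate 2, which had not been used to choose the regions, was read next. Of the 34 Treg-only regions at the 75th percentile or above, it had a peak in 16 (47.1%, exact 95% interval 29.8 to 64.9%). Of the 32 Tconv-only regions of that strength it had a peak in 0, and a count of 0 allows a share of up to 9.38% (3 counts of 32), or up to 10.9% by the exact 95% interval. Among shared regions of that strength it had a peak in 63.2% of 5755. Over all 36260 regions, including those only it had, KO Treg replicate 2 had a peak in 14.5%. Over all strengths, it had a peak in 51 of 2263 Treg-only regions (2.25%, exact 95% interval 1.68 to 2.95%) and in 12 of 1552 Tconv-only regions (0.773%, 0.4001 to 1.35%). Taken over all strengths, both sets thus lay below the 14.5% of all regions. These intervals cover counting error alone, and regions of 1 list are not replicates. Its share rose with strength in shared regions, from 2.21% below the 25th percentile to 88.5% from the 90th upward. In Treg-only regions it went from 0.529% below the 25th percentile to 45.2% between the 75th and the 90th. In Tconv-only regions it was 1.25% below the 25th percentile, 7 of 561 against 5 of 945 Treg-only regions, so the order of the sets was the opposite among weak regions. In all, 86.5% of the 5244 regions with a peak in this library were shared by the other 5, and 508 regions (9.69%) had a peak in no other KO library.

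With KO Treg replicate 2 required as well, 51 regions were open in every KO Treg library and in none of the Tconv (0.141% of regions). In the other direction 1540 regions were open in every KO Tconv library and in none of the Treg (4.25%). Replicate 2 thus took all but 51 of the 2263 Treg-only regions, and 12 of the 1552 Tconv-only ones, out of the counts. With 5262 top peaks taken from each of the 6 lists the counts were 127 and 164.

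The Treg-only and Tconv-only sets were then read in the WT libraries, which had not been used to choose them. WT Treg replicates 1, 2 and 3 had a peak in 73.8%, 76.9% and 65.1% of the Treg-only regions. WT Tconv replicates 1, 2 and 3 had one in 4.99%, 5.52% and 2.52%. Over all KO regions the same libraries had a peak in 60.6% to 70.8% (Treg) and 56.4% to 63.9% (Tconv). The mean difference was 67.6 percentage points between WT Treg (71.9 ± 6.12) and WT Tconv (4.35 ± 1.60; SD, n = 3 each), with an exact permutation p of 0.1 (two-sided), the smallest that 3 libraries against 3 allow. More WT Treg than WT Tconv libraries had a peak at 1992 of the 2263 regions, fewer at 22 and equally many at 249.

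For the Tconv-only regions the shares were 83.1%, 86.5% and 71.4% in WT Tconv replicates 1, 2 and 3. In WT Treg replicates 1, 2 and 3 they were 24.2%, 35.1% and 15.7%. The groups did not overlap (mean difference −55.4 points, exact permutation p = 0.1, two-sided, n = 3 each). WT Treg libraries thus had a peak at 24.96% ± 9.72 (SD, n = 3) of regions lacking one in KO Treg replicates 1 and 3, and WT Tconv libraries at 4.35% of regions lacking one in KO Tconv. The first rule asks for absence from 2 libraries and the second for absence from 3, and the WT Treg list with the highest share, replicate 2, was also the longest with 27605 peaks. The part of those numbers in this gap was not tested. At 78 Tconv-only regions all 6 WT libraries had a peak, against 3 Treg-only regions.

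**Figure D3:**
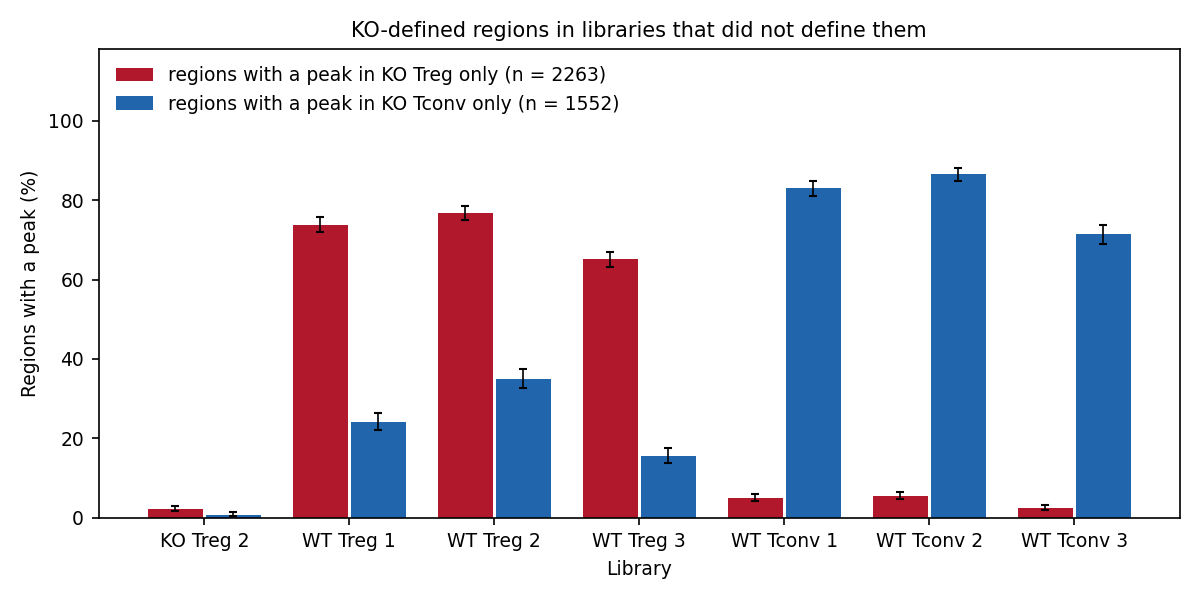
Share of the 2263 Treg-only and 1552 Tconv-only regions with a peak (vertical axis, percent) in each library that did not define them (horizontal axis), with exact 95% binomial intervals that cover counting error only. WT Treg bars for Treg-only regions stand between 65.1% and 76.9%, and the WT Tconv bars for the same regions between 2.52% and 5.52%.

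Lists made from WT libraries by their own rule, 3 of 3 against 0 of 3, overlapped the KO lists in part. Of the 2263 KO Treg-only regions 45.5% overlapped one of the 1887 WT Treg-only regions, which is 54.6% of the WT list. Of the 1552 KO Tconv-only regions 34.5% overlapped one of the 973 WT Tconv-only regions, which is 55.2% of the WT list. No WT library had a peak at 205 KO Treg-only regions (9.06%) and at 39 KO Tconv-only regions (2.51%). The KO Treg-only rule asks for a peak in 2 libraries and the KO Tconv-only rule in 3, so these shares cannot be set against each other. The share over all KO regions is not given here.

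The enhancer named in the genotype could not be placed, since no gene table of NCBIM37 was used, and for the same reason the sorted cells could not be checked by their marker genes. Chromosome 7 was searched instead for regions with a peak in WT Treg and none in KO. Lrrc32 is on chromosome 7 in the GRCm38.p6 gene table. In all, 61 regions were open in every WT Treg library and in none of the other 9, and 7 of them were on chromosome 7. That chromosome held 92 of the 1887 regions open in every WT Treg and no WT Tconv library. Between 105661791 and 105735112 lay 4 of the 7, a stretch picked with its values known. Whether it holds the deleted enhancer was not tested. At chr7:105710837-105711903 the WT Treg percentiles were 59.1, 48.0 and 52.6, and no KO library of either cell type had a peak.

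Around it, KO Treg kept peaks that KO Tconv lacked. The regions chr7:105637431-105639031 (14.3 and 23.1 in KO Treg replicates 1 and 3), chr7:105640277-105640698 (38.8 and 39.5), chr7:105682634-105683904 (27.3 and 44.2) and chr7:105728635-105729408 (55.5 and 35.2) were all Treg-only. None of the 4 had a peak in KO Treg replicate 2, and all 4 had one in every WT Treg and no WT Tconv library. A difference between Treg and Tconv thus remained in the KO lists at these 4 regions. Regions open in every WT Treg library and without a KO peak lay among them, at 105661791, 105705321 and 105710837. Another such region, at 105734587, lay beyond the last of the 4.

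Treg-only regions were chained where the gap to the next was at most 50 kb. Most stood alone. There were 1413 single Treg-only regions and 93 stretches with at least 3, which together held 328 regions (14.5%). For Tconv-only regions there were 1100 single ones and 40 stretches with at least 3, holding 142 regions (9.15%). The part of the unequal size of the sets in this was not tested. The median distance from a Treg-only region to the next was 100.9 kb, against 545 kb to the nearest Tconv-only region. For a Tconv-only region these medians were 168 kb to its own kind and 319 kb to the nearest Treg-only region. Shared regions lay closer to both, at 25.7 and 20.3 kb. There were 16812 shared, 2263 Treg-only and 1552 Tconv-only regions, and the part of these sizes in the distances was not tested.

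The stretch with most Treg-only regions ran over 190 kb of chromosome 6, from 15605840 to 15796155, with 9 Treg-only regions among 22 regions in all. The Treg-only regions there were of middling strength, with a mean percentile of 31.0 and a highest mean over the 2 replicates of 63.9, at chr6:15660487-15661350. They alternated with 6 shared regions, and no Tconv-only region lay among them. One shared region, chr6:15678609-15679774, ranked at 61.7 and 55.9 in KO Treg and at 15.99, 32.3 and 30.3 in KO Tconv. Another, chr6:15742756-15744136, ranked at 88.04 and 92.4 in KO Treg and at 88.2, 90.6 and 94.6 in KO Tconv, so the groups overlapped there. In WT Treg replicates 1, 2 and 3, 8, 8 and 6 of the 9 regions had a peak, and in WT Tconv none did.

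A second stretch held 6 Treg-only regions over 70.0 kb of chromosome 4, from 144856214 to 144926199, with 3 shared regions among them. One of these shared regions, chr4:144909108-144909626, ranked at 82.7 and 89.5 in KO Treg and at 26.01, 51.4 and 37.7 in KO Tconv. The third, over 32.4 kb of chromosome 5 from 91305901 to 91338294, held 5 Treg-only regions and no other region. Its members had mean percentiles between 8.70 and 44.6, and 1 of them had a peak in KO Treg replicate 2.

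The stretch with most Tconv-only regions lay on chromosome 5, from 89357462 to 89627967. It held 10 Tconv-only regions over 271 kb and no shared region. KO Treg replicates 1 and 3 had no peak in the whole stretch, and KO Treg replicate 2 had 1, outside the 10. The strongest member, chr5:89551868-89552700, ranked at 72.8, 87.1 and 80.3 in KO Tconv replicates 1 to 3. All 3 WT Tconv libraries had a peak in all 10 regions, and no WT Treg library had one in any.

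**Figure D4:**
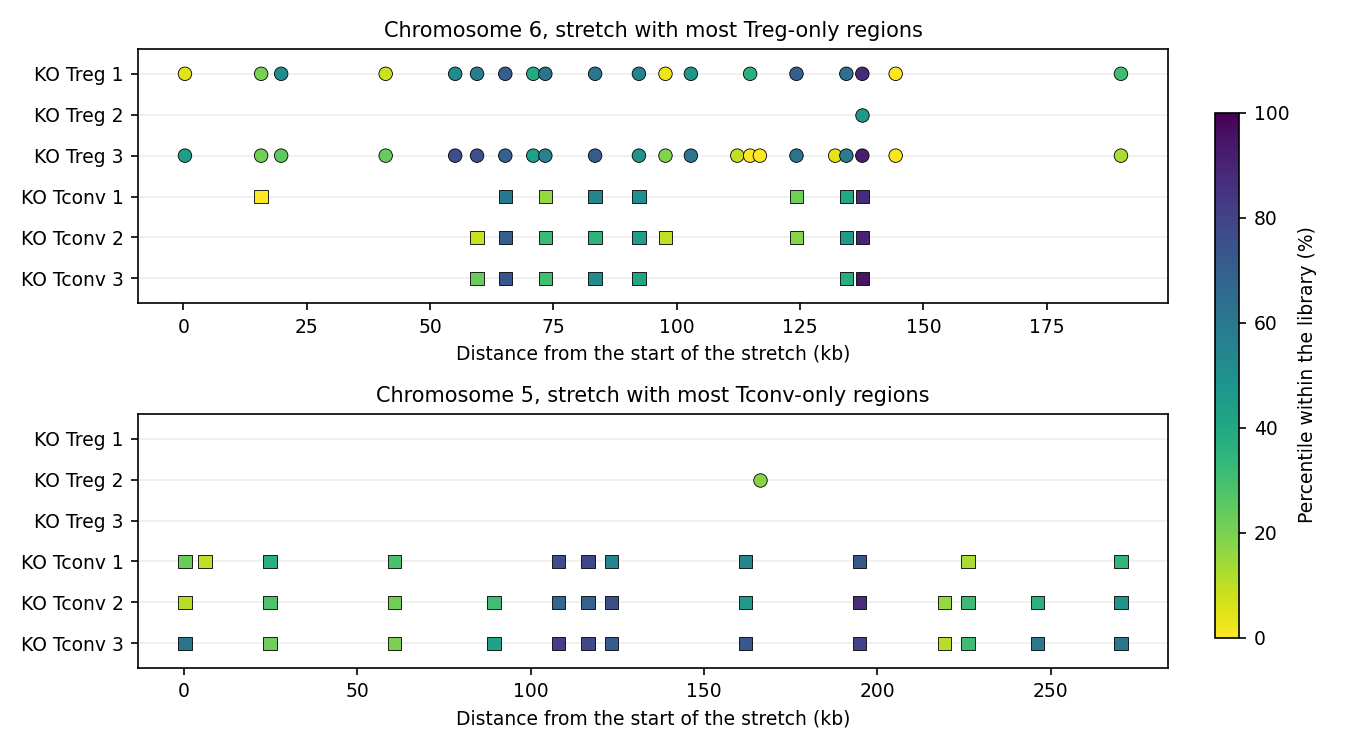
Peaks of the 6 KO libraries (rows) along the stretch with most Treg-only regions (upper panel, chromosome 6) and with most Tconv-only regions (lower panel, chromosome 5), by distance in kb from the start of the stretch, coloured by percentile within the library. KO Treg replicates 1 and 3 have no point in the lower panel, while in the upper panel 6 positions have points in all 5 libraries.

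The second Tconv-only stretch read differently in WT. It ran from 117099830 to 117249356 on chromosome 12 and held 6 Tconv-only regions. WT Treg replicates 1, 2 and 3 had a peak in 3, 4 and 3 of these 6, whereas KO Treg libraries had none by the rule. At chr12:117249002-117249356 all 6 WT libraries had a peak, and the KO Tconv percentiles were 80.8, 61.7 and 51.3. The stretch also held a Treg-only region, chr12:117110779-117111087, at 8.43 and 67.8. The third stretch, 29.1 kb on chromosome 16 from 84971869 to 85000959, held 5 Tconv-only regions and no WT Treg peak in any of them.

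Treg-only and Tconv-only regions were unequally spread over the chromosomes. On most chromosomes the Treg-only count was the higher. The rules for the sets ask for different numbers of libraries, so which count is the higher on a chromosome is not a result in itself. On chromosome 11, 59 of 2081 regions (2.84%) were Treg-only and 108 (5.19%) were Tconv-only, and on chromosome 17 the counts were 66 (3.90%) and 91 (5.38%). On every other autosome there were more Treg-only regions, from 87 against 81 on chromosome 15 to 124 against 48 on chromosome 16. The highest Treg-only share was on chromosome 13 (9.24%). The WT lists had 48 Treg-only and 68 Tconv-only regions on chromosome 11, 55 and 54 on chromosome 17, and 105 and 34 on chromosome 16. No test was made of these counts, since regions of a chromosome are not independent.

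Shared regions were next compared by strength. The median difference in percentile, KO Treg minus KO Tconv, was 0.0186 points over the 16812 regions, and 65.8% differed by less than 10 points. The limma test (eBayes with a trend, 2 libraries against 3, Benjamini-Hochberg adjustment over all 16812) called 3 regions higher in Treg (0.0178%) and 7 higher in Tconv (0.0416%). At an unadjusted p under 0.05 there were 1107 and 1340. The median standard error was 8.50 points, so most differences of moderate size could not pass. These few calls also depended on single libraries: without any 1 of the 3 Tconv libraries 0 regions passed in either direction, with unadjusted counts of 1048 to 1159 (Treg) and 1077 to 1254 (Tconv). Without KO Treg replicate 1 the calls were 0 and 13, and without KO Treg replicate 3 they were 0 and 15 (limma, unadjusted 578 and 551 in the Treg direction). With stricter peaks they were 0 and 2 (unadjusted 925 in the Treg direction). With fold ratios the calls were 6 and 7, and without a trend they were 7 and 3. With replicate number as a term they were 170 and 277, where 1 residual degree of freedom is left. With KO Treg replicate 2 included at equal numbers of peaks, limma called 0 and 0, with 169 and 100 at an unadjusted p under 0.05.

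The 3 regions that were higher in Treg lay on chromosomes 11, 14 and 13. At chr11:26539902-26540825 the percentiles were 93.9 and 95.4 in KO Treg replicates 1 and 3 and 11.1, 16.5 and 16.0 in KO Tconv. The groups were far apart (difference 80.1 ± 8.15, SE, limma adjusted p = 0.0359). WT Treg libraries ranked it at 85.0 to 91.2 and WT Tconv libraries at 2.87 to 28.2.

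At chr14:87450880-87451900 the percentiles were 91.9 and 82.4 in KO Treg and 15.9, 20.6 and 15.5 in KO Tconv (difference 69.9 ± 8.39, limma adjusted p = 0.0497). No WT Tconv library had a peak there. At chr13:44602214-44602950 they were 85.5 and 84.4 in KO Treg and 22.3, 19.8 and 13.5 in KO Tconv (difference 66.4 ± 8.28, limma adjusted p = 0.0497), and 2 of the 3 WT Tconv libraries had a peak. All 3 regions were thus near the top of the lists of KO Treg replicates 1 and 3 and near the bottom of the KO Tconv lists. KO Treg replicate 2 ranked the first at 34.2 and the second at 27.7 of its own shorter list and had no peak at the third.

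The next 7 regions by size did not pass, with limma adjusted p from 0.0605 to 0.107 and differences of 57.9 to 65.1 points. Their Treg and Tconv percentiles did not overlap, which was a condition for naming them. They lay at chr10:74685129-74685788, chr7:113379480-113381043, chr11:115502342-115503023, chr8:41680307-41680996, chr3:19350955-19351357, chr5:53957518-53958465 and chr13:24578909-24579747. At the last, KO Treg ranked at 92.6 and 93.3 and KO Tconv at 36.9, 35.6 and 32.5, and no WT Tconv library had a peak.

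Of the 7 regions that were higher in Tconv, chr6:67297712-67298736 had the largest difference. Its percentiles were 94.9, 93.0 and 93.7 in KO Tconv and 19.7 and 17.6 in KO Treg (difference −75.2 ± 7.62, limma adjusted p = 0.0359). The WT libraries gave 90.9 to 97.9 in Tconv and 10.5 to 27.0 in Treg. The fold enrichment in the authors' lists was 7.81 to 8.34 in KO Tconv and 4.84 to 4.94 in KO Treg.

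At chr3:126291617-126292947 the KO Tconv percentiles were 96.9, 90.4 and 88.8 and the KO Treg ones 38.3 and 31.3. The regions chr13:5756098-5757208, chr7:65647515-65648982 and chr10:4897547-4898426 had KO Treg means of 43.7, 48.4 and 50.8 against KO Tconv means of 91.9, 92.7 and 93.6. These 4 regions had differences of −57.2 to −42.8 points, each at a limma adjusted p of 0.0497. In WT Treg the regions on chromosomes 3 and 13, picked with their values known, ranked higher than in KO Treg, at 44.2 to 68.4 and at 63.5 to 71.2, without overlap with KO Treg. The test of that difference in differences did not pass for either (−25.1 ± 10.3 and −25.0 ± 6.63 points, limma interaction adjusted p = 0.932 for both).

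The last 2 regions were strong in both cell types and had a small spread. At chr11:17092165-17092789 KO Treg ranked at 73.2 and 75.6 and KO Tconv at 95.9, 94.6 and 96.8 (difference −21.3 ± 2.20, limma adjusted p = 0.0359). At chr13:74665931-74668048 KO Treg ranked at 91.5 and 89.99 and KO Tconv at 99.2, 99.1 and 99.2 (difference −8.42 ± 0.916, limma adjusted p = 0.0405). In KO Treg replicate 2 this region ranked at 99.6 of its own shorter list, so that the percentiles overlap with that library included. Regions with large differences that did not pass were chr1:66598686-66599927 (−69.4 ± 9.71, limma adjusted p = 0.0605), chrX:111587378-111588496 (−63.3 ± 11.1, limma adjusted p = 0.0788) and chr11:75132145-75132887 (−62.5 ± 9.79, limma adjusted p = 0.0659).

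**Figure D5:**
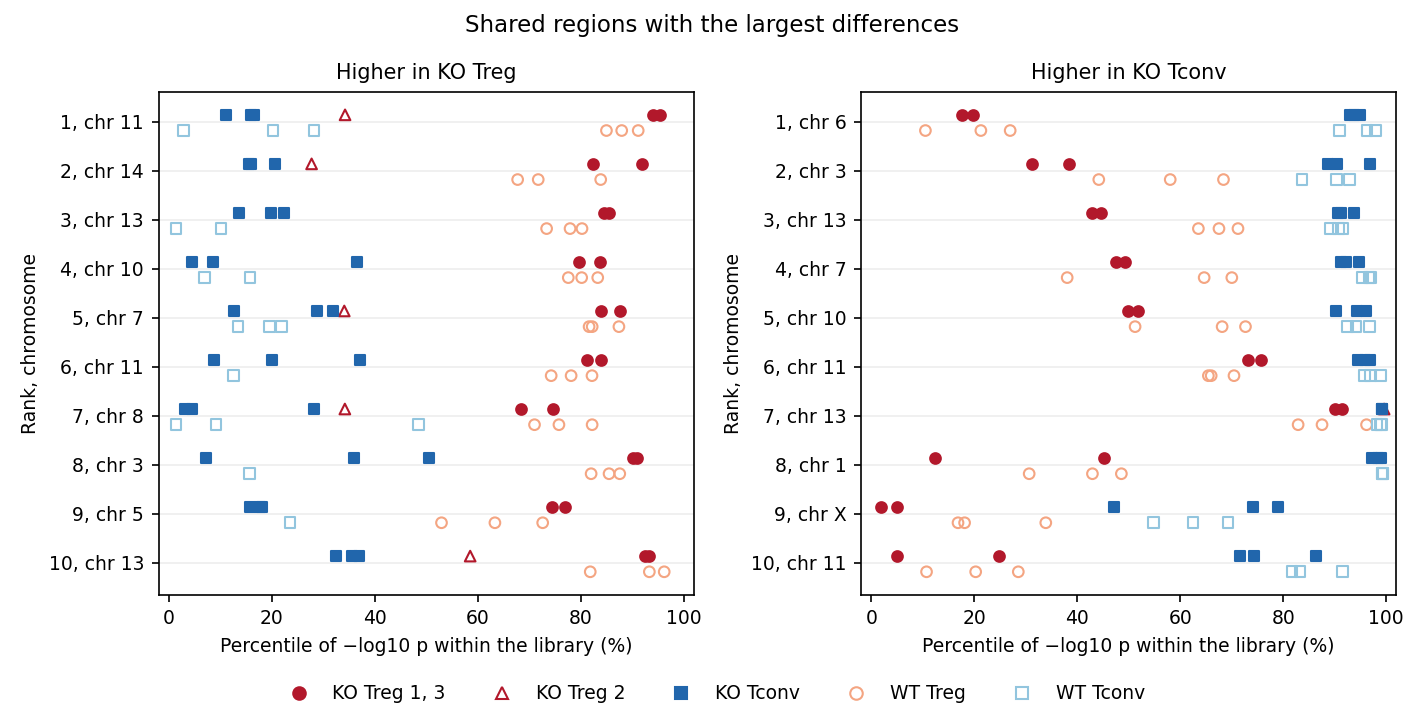
Percentile of −log10 p within each library (horizontal axis) for the 10 shared regions per direction with the largest differences without overlap, those passing limma first (ranks 1 to 3 on the left, 1 to 7 on the right), 1 row per region labelled by rank and chromosome and 1 point per library with a peak. KO Treg replicates 1 and 3 and KO Tconv stand apart in every row, by 80.1 points on average at the first row on the left and 75.2 points at the first row on the right.

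Differences too small to pass singly were read against the WT libraries. In 2764 shared regions both KO Treg percentiles were above all 3 KO Tconv ones (16.4%), and in 2736 both were below (16.3%). With 10 labelings of 2 against 3 libraries, a random order would give each outcome at a share of 0.1. Many regions of both sets may therefore hold no cell type difference. WT libraries all had a peak at 2364 of the first set, and the WT Treg mean was above the WT Tconv mean at 88.6% of these, against 62.8% of all 14735 shared regions with a peak in all 6 WT libraries. In the second set it was above at 31.2% of 2417 regions. The median WT difference was 9.004 points in the first set, −4.08 in the second and 2.34 over all.

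The WT lists held 21269 to 24546 peaks in Tconv and 22883 to 27605 in Treg, and the part of list length in the median of 2.34 was not tested. Where the KO difference was at least 30 points without overlap, the WT Treg mean was above at 96.5% of 171 regions in the Treg direction and at 9.27% of 313 in the Tconv direction. In these, all 3 WT Treg percentiles were above all 3 WT Tconv ones at 73.7%, and all below at 54.0%, respectively. Over all shared regions those shares were 17.3% and 7.53%.

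Whether the cell type difference itself depended on the genotype was tested over the 14735 regions with a peak in 11 libraries, all but KO Treg replicate 2. The limma interaction of cell type and genotype called 0 regions (0%), with a smallest adjusted p of 0.932 and 697 regions at an unadjusted p under 0.05 (4.73%). The median standard error of the interaction was 11.1 points. Differences of that size were not detectable with 2 KO Treg libraries, and the result does not show that the cell type difference was equal in both genotypes.

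Whole peak sets of the 5 longer KO lists also grouped by cell type. The Jaccard index, the bases covered by both of 2 lists over those covered by either, was 0.654 between KO Treg replicates 1 and 3 and 0.643 to 0.647 among the KO Tconv libraries. Between the cell types it was 0.559 to 0.572, so the ranges did not overlap. The mean within minus between cell types was 0.0800 (exact permutation p = 0.1, one-sided, the smallest possible with 10 labelings). KO Treg replicate 2 could not be placed by this index. Its indices were 0.130 and 0.124 with KO Treg replicates 1 and 3, and 0.133, 0.132 and 0.127 with the KO Tconv libraries. Its list covered 2.41 Mb, against 15.3 to 16.7 Mb in the 5 longer lists. That gap caps each of these indices, most with the longest list, KO Treg replicate 3, so their order does not tell the cell types apart. With it included the mean index within Treg was 0.303, below the 0.422 between cell types, and the separation of 0.0521 (exact permutation p = 0.1, one-sided) came from the 0.645 within Tconv.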

How the data were processed

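ATAC-seq had been made from 12 libraries of sorted mouse splenic CD4+ T cells, each with its own list of broad peaks. The build is NCBIM37 per the submitters' processing notes, which also name, without roles, MACS2, Bowtie2, DESeq2, DiffBind and Trim Galore 0.4.4. No source used here gives a control, read filter or cut-site shift, and the effect of these on peak edges could not be checked. For each peak the authors deposited a score, a fold ratio and the −log10 of its p-value and q-value. The −log10 p grows with depth, so the main comparison of strength used its within-list percentiles. The best peak of a region was taken, and the lowest −log10 p was about 5. Fold ratios were also given at named regions and tried as an alternative. Presence rests on the calling limit, so it can depend on depth, which is unknown. Numbers inside the peak names run replicate by replicate, in another order than the deposit, and groups were taken from the titles.

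Peaks of the 6 KO lists were merged where they overlapped or touched. Presence needed 1 bp of overlap. Strength was tested with limma 3.58.1 in R 4.3.3 with eBayes and a trend on percentiles of shared regions, at an adjusted p under 0.05. Regions were named if they were among the 10 highest mean percentiles per direction, the 10 shared regions per direction with the largest difference without overlap (passing ones first) and the 3 stretches per direction with most members, chained at gaps up to 50 kb. The members and lists were chosen with earlier results of these data known. The alternatives tried were equal numbers of top peaks, stricter peaks (−log10 q from 5 upward), 50% coverage, joining across 200 bp, autosomes alone, fold ratios, no trend, pairing by replicate number and leaving out libraries. Presence calls and the limma test were also run on simulated data, in which libraries were drawn independently. The outcome is not given here and is not used as support. No genome or gene table of NCBIM37 was used, so the planned gene lists, cell type markers and sequences were not analysed here. Other software was scipy 1.17.1, pandas 2.3.3, numpy 2.4.6 and matplotlib 3.10.9 under Python 3.11.15.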

Additional observations from a re-analysis of the deposited data

How the results depend on the processing

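The number of peaks called sets what presence can show, and 1 short list enters every count that requires it. For regions open in every KO Treg and no KO Tconv library, the count of 51 became 7 with stricter peaks, 127 with 5262 top peaks per list, 19 at 50% coverage, 2287 with the replicate block (a difference in at least 2 of 3 pairs, none opposite) and 2270 when 2 of 3 libraries were enough. In the Tconv direction, 1540 became 164 with 5262 top peaks, 4667 with the replicate block and 2 of 3 pairs, and 3197 when 2 of 3 libraries were enough. Leaving out single libraries gave 52 to 2263 (highest without KO Treg replicate 2) and 1552 to 2413 (highest without KO Treg replicate 3). In the comparison without KO Treg replicate 2, leaving out a library gave 2565 to 3972 Treg-only and 2037 to 2434 Tconv-only regions, all higher by construction, and a replicate block of pairs 1 and 3 gave 2611 and 2203. The 5 other settings for these 2 counts stayed within 1.5 times.

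Shared regions that passed limma numbered 3 (Treg) and 7 (Tconv). They were 0 and 2 with stricter peaks, 6 and 7 with fold ratios, 7 and 3 without a trend, 0 and 0 with KO Treg replicate 2 and equal numbers of peaks, and 170 and 277 with the replicate block, where 1 residual degree of freedom is left. Leaving out single libraries gave 0 in Treg and 0 to 15 in Tconv. The interaction called 0 regions in each alternative run. Same-numbered Treg and Tconv libraries deviated together only weakly, although each library correlated best with its own number. The r was 0.05002, 0.0387 and 0.0268 for replicates 1 to 3. It was taken across the 2678 regions with a peak among the 5262 top peaks of each of the 6 KO lists. With the replicate block, all 10 named shared regions that had not passed did so, at limma adjusted p from 0.000797 to 0.0105. The labels do not say what a number marks, so pairing was not used.

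KO Treg replicate 2 had a peak at 0.381% of Treg-only and 0.192% of Tconv-only regions with stricter peaks and 0.737% and 0.321% at 50% coverage. The 5 settings tried for that share were chosen after seeing the data. The 20 named Treg-only and Tconv-only regions kept their presence in each of the 5 list settings. No difference at a named region changed sign where it could be scored, while the limma calls went from fewer to more in Treg than in Tconv without a trend. Named shared regions that were no longer shared in a setting were not scored. With stricter peaks only 1 of the 10 named regions higher in Treg was scored. With KO Treg replicate 2 and equal numbers of peaks only 1 named shared region was, in the Tconv direction. The cause was not tested except where a setting's construction shows it.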
